A study of Mus musculus with 18 samples.

Results

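The genes that load peptides onto major histocompatibility complex (MHC) class I molecules were followed across all 6 groups of the study. They were chosen by symbol: H2-K1, H2-D1, B2m, Tap1, Tap2, Tapbp, Psmb8, Psmb9, Psmb10 and Nlrc5, which are 10 of the 24421 gene symbols in each count table. All 10 had enough reads to be tested in both tables. Class I molecules show fragments of a cell's own proteins at its surface, where cytotoxic T cells read them. The proteasome cuts the fragments, the TAP transporter moves them into the endoplasmic reticulum, and tapasin helps to fit them into a heavy chain paired with β2-microglobulin. Interferons raise the whole set in most cell types, in part through the transactivator NLRC5, and mesenchymal stromal cells are known to show moderate class I levels at rest.

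RNA was sequenced from 18 libraries, with 3 in each group. Of these, 12 were of mesenchymal stem cells from bone marrow (BM MSCs), sorted as CD51+/PDGFRα+ cells from C57BL/6 mice aged 4 to 6 months and grown in culture. The mice were Pot1awt/wt or Pot1aflox/flox and all carried a flox-stop-flox tdTomato reporter. Cells of both genotypes were given Cre in vesicles (10 µL per well for 12 h), the tdTomato+ cells were sorted after 48 h, and RNA was taken at week 1 or week 4. The other 6 libraries were of tdTomato+ cells sorted from the marrow of NG2-cre/loxp-tdTomato mice at 2 weeks of age. NG2-cre is active in pericytes throughout the body, so other tissues of those mice also carried the deletion. Their titles give Pot1awt/Δ or Pot1aΔ/Δ, whereas the genotype field gives POT1afl/fl for all 6, and groups were taken from the titles. Labels do not tie a library to a mouse or a date.

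Total counts per library ran from 12807832 to 90717232 in culture (median 26643717) and from 28918757 to 49992698 in the sorted cells (median 43812058). Pot1a, the targeted gene, stood at 33.8 to 36.6 CPM (read counts relative to library size, after TMM scaling) in wt/wt and 31.1 to 37.9 CPM in the Δ/Δ-labelled libraries at week 1. At week 4 it stood at 33.2 to 37.8 CPM and 42.8 to 47.9 CPM, which was higher in the Δ/Δ-labelled libraries (log2 difference 0.39 ± 0.11 SE, edgeR adjusted p = 0.0298). In the sorted cells it stood at 26.9, 30.0 and 34.3 CPM in wt/Δ and at 30.8, 19.1 and 31.0 CPM in Δ/Δ. Counts cover a whole gene and do not show whether a floxed exon was lost, so these groups are called by their label throughout. The study itself reports reduced Pot1a by qPCR, both in cultured cells after Cre and in sorted tdTomato+ cells. It also reports a band of the deleted allele on a gel. Mesenchymal markers summed to 19949 CPM or more in every library, with Col1a1, Col1a2 and Cxcl12 each at 2096 CPM or more. Col3a1, also on that list, stood at 3013 to 7617 CPM in culture. Some other markers of the list were low in part or all of the libraries. Thy1 reached at most 2.27 CPM in any library. Lepr stood at 5.81 to 13.4 CPM at week 1 and at 753 to 2073 CPM in the sorted cells. In the sorted cells Cspg4, which encodes NG2, stood at 9.26 to 22.4 CPM and Nes at 6.47 to 25.9 CPM. In culture the T and NK cell, B cell, neutrophil and erythroid markers each summed to at most 1.75 CPM in every library. In the sorted cells, by contrast, macrophage markers summed to 972 to 2382 CPM and neutrophil markers to 1856 to 3781 CPM.

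Class I genes are grouped in the genome as well as in function. In the mouse annotation (GRCm38.p6, GENCODE vM21), H2-K1, Tapbp, Psmb9, Tap1, Psmb8, Tap2 and H2-D1 all lie on chromosome 17, within the MHC. Tap1 (chr17:34187553-34197225) and Psmb9 (chr17:34181987-34187764) are transcribed away from each other and overlap by 212 bases at their starts. B2m lies on chromosome 2 (chr2:122147686-122153083), and Psmb10 and Nlrc5 lie on chromosome 8. The windows from 250 bases before to 50 bases after the RefSeq gene start were at hand for 8 of the 10 genes, all but Tap2 and Nlrc5. They are shown for the light chain, both heavy chains and Tap1, since these are the most abundant members and the transporter gene that shares its start with Psmb9, with every match to 5 searched motifs in capitals, on either strand. H2-K1 is at chr17:34000298-34000597 (minus strand), H2-D1 at chr17:35262844-35263143, B2m at chr2:122147437-122147736 and Tap1 at chr17:34187306-34187605 (all plus strand).
H2-K1: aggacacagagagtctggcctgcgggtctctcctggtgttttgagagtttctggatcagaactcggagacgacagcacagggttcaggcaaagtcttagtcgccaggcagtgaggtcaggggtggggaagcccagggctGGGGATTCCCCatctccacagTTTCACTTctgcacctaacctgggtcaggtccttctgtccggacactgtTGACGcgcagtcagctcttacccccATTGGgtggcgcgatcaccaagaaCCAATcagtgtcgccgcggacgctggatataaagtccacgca
H2-D1: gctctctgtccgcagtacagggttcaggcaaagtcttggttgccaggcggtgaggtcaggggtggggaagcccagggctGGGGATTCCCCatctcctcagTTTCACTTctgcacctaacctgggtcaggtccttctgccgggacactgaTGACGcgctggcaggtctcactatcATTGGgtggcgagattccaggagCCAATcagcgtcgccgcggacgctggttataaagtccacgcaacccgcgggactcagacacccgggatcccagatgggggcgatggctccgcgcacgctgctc
B2m: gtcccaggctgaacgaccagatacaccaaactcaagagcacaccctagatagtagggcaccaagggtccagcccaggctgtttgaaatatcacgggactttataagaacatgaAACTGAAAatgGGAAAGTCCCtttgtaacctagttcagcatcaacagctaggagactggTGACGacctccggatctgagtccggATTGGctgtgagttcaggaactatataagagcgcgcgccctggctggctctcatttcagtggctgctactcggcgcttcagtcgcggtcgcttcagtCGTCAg
Tap1: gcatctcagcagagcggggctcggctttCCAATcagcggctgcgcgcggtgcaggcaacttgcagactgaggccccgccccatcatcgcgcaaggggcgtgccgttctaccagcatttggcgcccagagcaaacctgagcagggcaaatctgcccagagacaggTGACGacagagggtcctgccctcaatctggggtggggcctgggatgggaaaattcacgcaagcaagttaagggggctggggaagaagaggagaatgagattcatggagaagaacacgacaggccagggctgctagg
The motifs were the NF-κB consensus and the core bound by interferon regulatory factors (IRF), AANNGAAA. The others were the cyclic AMP response site TGACG, the box CCAAT that NF-Y binds, and the interferon-γ activated element, TTCNNNGAA. H2-K1, H2-D1 and B2m each held an NF-κB match, an IRF core, a TGACG and a CCAAT. In H2-K1 and H2-D1 the NF-κB consensus matched at overlapping positions, and the capitals run across both matches. At the best ungapped offset, 176 of 240 bases of these heavy chain windows were identical (73.3%). Tap1 held a TGACG and a CCAAT, and 275 bases of its window are also in that of Psmb9 on the other strand. Among all 8 windows an NF-κB match was found in 3, against 4.51% of 32851 promoter windows of the same length. For each member only the window that starts farthest upstream was used, whereas the 32851 were taken without such a choice. The IRF core was found in 3 of 8 (23.9% of all windows), TGACG in 5 of 8 (20.8%), CCAAT in 6 of 8 (37.4%) and TTCNNNGAA in 1 of 8, Psmb8 (8.30%). The TGACG and CCAAT matches of Tap1 and Psmb9 are the same sites read on opposite strands, and the heavy chain windows are alike, so these windows are not separate cases. The matches describe the letters only.

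To compare genes with each other, CPM were divided by exon length. Per kilobase, B2m had the highest mean of the 10 in every group, and Nlrc5 the lowest. In wt/wt cells at week 1, mean levels per kilobase were 608 CPM for B2m, 165 for H2-K1, 125 for H2-D1 and 64.0 for Tapbp. The peptide transporter and immunoproteasome genes lay below these, from 32.2 CPM per kilobase for Psmb8 to 4.36 for Psmb9, and Nlrc5 stood at 2.30. The order of B2m, H2-K1, H2-D1 and Tapbp was the same in all 4 cultured groups. Neighbours in the order did not overlap in either group at week 1. At week 4 the libraries of Tap1, Tap2 and Psmb8 overlapped in both genotypes, and in those labelled Δ/Δ so did H2-K1 with H2-D1 and Psmb10 with Psmb9. In the sorted cells H2-K1 and H2-D1 also overlapped each other.

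The first comparison asked how the members changed between week 1 and week 4 in the Δ/Δ-labelled libraries. All 10 rose. Heavy chains and light chain rose by 2.31-fold to 2.87-fold, the transporter and tapasin genes by 1.80-fold to 2.48-fold, and the immunoproteasome subunits by 2.12-fold to 4.40-fold. Over all 13169 genes tested, 18.8% were called higher in this comparison (edgeR, adjusted p under 0.05). The median log2 change of the members was 1.28, against 0.0035 over all genes. In bulk libraries such as these, a change in the number of cells of a kind and a change in RNA per cell cannot be told apart.

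H2-K1, a classical heavy chain, stood at 184, 186 and 192 CPM at week 1 and at 617, 398 and 600 CPM at week 4 in the Δ/Δ-labelled libraries. H2-D1, the other classical heavy chain measured here, stood at 168, 180 and 202 CPM and then at 586, 335 and 476 CPM. B2m, which encodes β2-microglobulin, stood at 346, 325 and 330 CPM and then at 797, 759 and 758 CPM. Every week 4 library lay above every week 1 library for these genes, and replicate 2 was the lowest of week 4 for both heavy chains. The log2 change was 1.52 ± 0.16 (SE) for H2-K1 (edgeR adjusted p = 1.39e-05), 1.34 ± 0.18 for H2-D1 (adjusted p = 1.04e-04) and 1.21 ± 0.24 for B2m (adjusted p = 0.00189). H2-K1 and H2-D1 are close paralogs of each other and of further H2 genes, and reads they share cannot be told apart. B2m lies wholly within Patl2 on the opposite strand, and the library kit does not mark strand.

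Tap1 and Tap2, the subunits of the peptide transporter, rose as well. Tap1 stood at 52.1, 49.4 and 49.0 CPM at week 1 and at 147, 81.6 and 144 CPM at week 4 (log2 change 1.31 ± 0.19, edgeR adjusted p = 2.24e-04). Tap2 stood at 82.7, 74.6 and 73.9 CPM and then at 141, 113 and 161 CPM (0.85 ± 0.13, adjusted p = 2.38e-04). Tapbp, which encodes tapasin, stood at 152, 181 and 170 CPM and then at 454, 266 and 400 CPM (1.15 ± 0.18, adjusted p = 3.66e-04). The weeks did not overlap for any of these genes, and replicate 2 was again the lowest at week 4. Tapbp shares 3422 bases with Zbtb22 on the same strand, and Tap2 shares bases with antisense genes, so part of their counts is uncertain.

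The immunoproteasome subunits replace the catalytic subunits of the standard proteasome and change which peptides are cut. Psmb8 stood at 32.7, 32.0 and 32.7 CPM at week 1 and at 108, 42.1 and 83.0 CPM at week 4 (log2 change 1.26 ± 0.27, edgeR adjusted p = 0.00324). Psmb9 stood at 5.02, 3.92 and 3.62 CPM and then at 20.1, 13.1 and 21.4 CPM, the largest change of the 10 members (2.14 ± 0.22, adjusted p = 1.37e-05). Psmb10 stood at 12.5, 11.8 and 11.4 CPM and then at 31.6, 16.5 and 27.3 CPM (1.09 ± 0.22, adjusted p = 0.00251). All 3 subunits were above their week 1 range in every week 4 library, with replicate 2 nearest to it.

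Nlrc5, the transactivator of class I genes, stood at 16.4, 12.8 and 14.2 CPM at week 1 and at 27.1, 47.0 and 37.8 CPM at week 4. Here replicate 2 was the highest of its group, not the lowest, and the weeks did not overlap. The log2 change of 1.37 ± 0.41 passed the test (edgeR adjusted p = 0.0205) and was lost without replicate 2 or 3 of week 1 (1.29 and 1.36) or replicate 2 of week 4 (1.17). The other 9 calls held when any library of the comparison was left out. The weeks did not overlap for any of the 10 members, and 25.9% of all genes tested were likewise higher with no overlap.

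**Figure D1:**
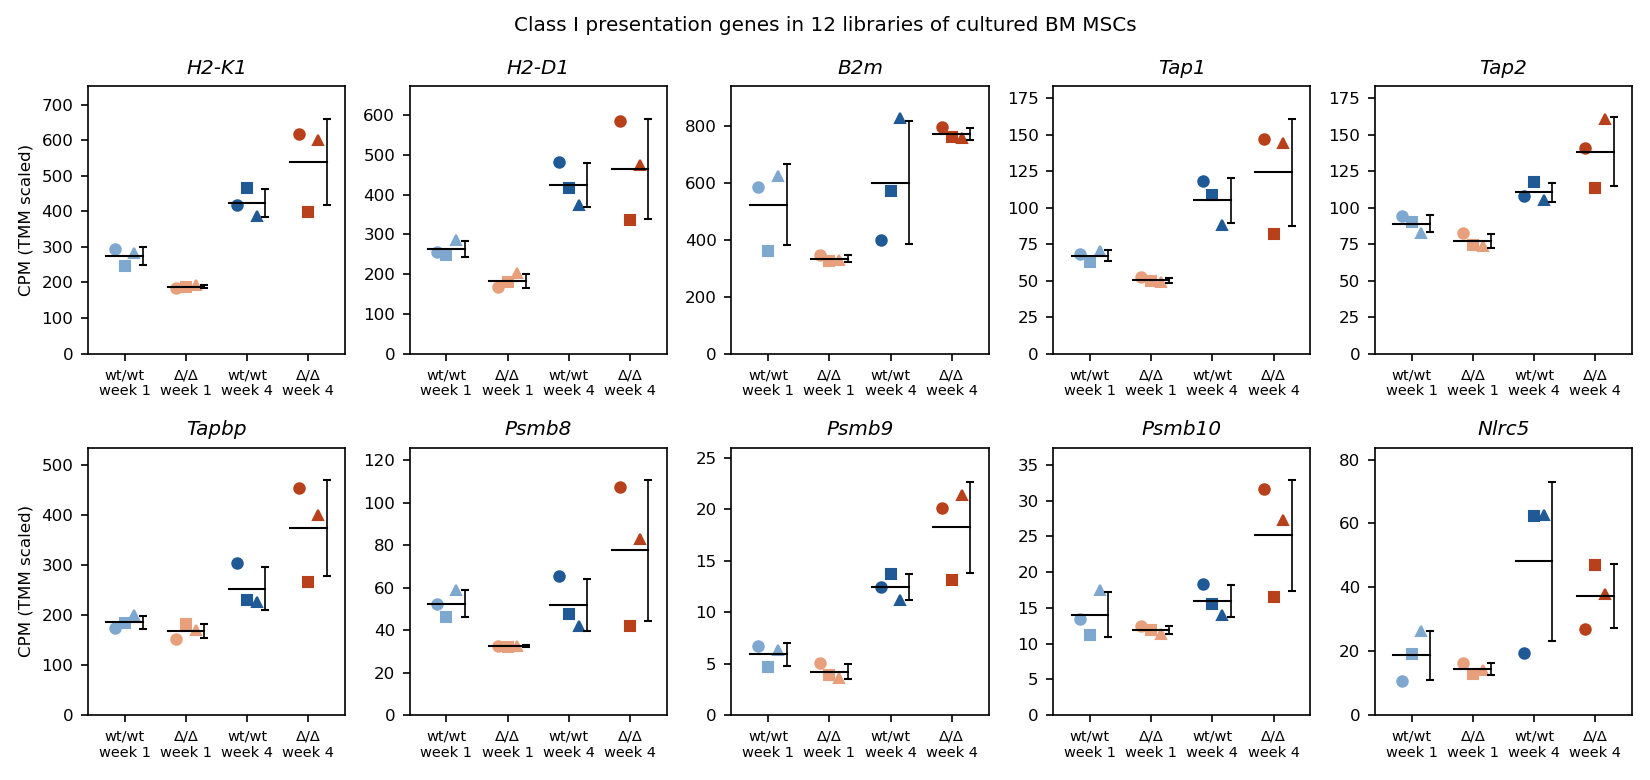
CPM (TMM scaled, linear axes from 0) of each member in the 12 cultured libraries. Circles, squares and triangles are replicates 1, 2 and 3, black lines are group means and error bars are the SD (n = 3). In the Δ/Δ-labelled libraries the week 4 points lie above the week 1 points in every panel, and replicate 2 of week 4 is the lowest of its group for 8 of the 10 genes.

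The same question was asked of the wt/wt cells, in which 5 of the 10 members rose and 5 did not pass the test. Those that rose were H2-K1, H2-D1, Tap1, Psmb9 and Nlrc5, by 1.55-fold to 2.60-fold. Over all genes 17.9% were called higher in this comparison, and the median log2 change was 0.54 for the members against -0.0082 over all genes. The comparisons of time and of genotype use the same cultured libraries in different pairs, so their values stand side by side and were not set against each other except through the test of the interaction.

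H2-K1 stood at 294, 246 and 282 CPM in wt/wt cells at week 1 and at 419, 464 and 388 CPM at week 4 (log2 change 0.63 ± 0.15, edgeR adjusted p = 0.00686). H2-D1 stood at 255, 247 and 287 CPM and then at 483, 416 and 375 CPM (0.69 ± 0.18, adjusted p = 0.00927). Neither heavy chain overlapped between the weeks, and 6 members in all were higher at week 4 with no overlap, as were 22.5% of all genes. B2m stood at 584, 361 and 622 CPM and then at 399, 572 and 828 CPM, so that its weeks overlapped and the change of 0.20 ± 0.24 did not pass (adjusted p = 0.556). Replicate 1 of week 4 lay below replicates 1 and 3 of week 1 for B2m.

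Tap1 stood at 68.4, 62.6 and 70.4 CPM in wt/wt cells and then at 118, 108 and 87.8 CPM. Its change of 0.64 ± 0.19 passed (edgeR adjusted p = 0.0198) and was lost without replicate 2 of week 1 (0.61) or replicate 1 of week 4 (0.54). Tap2 stood at 94.1, 90.4 and 82.5 CPM and then at 108, 118 and 105 CPM, and Tapbp at 173, 184 and 199 CPM and then at 303, 230 and 225 CPM. These genes did not overlap between weeks either, but their changes of 0.31 ± 0.12 and 0.44 ± 0.18 did not pass (adjusted p = 0.0739 and 0.0752).

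The immunoproteasome genes differed among themselves in wt/wt cells. Psmb9 rose, from 6.73, 4.64 and 6.31 CPM to 12.5, 13.7 and 11.1 CPM (1.07 ± 0.21, edgeR adjusted p = 0.00179). Psmb8 stood at 52.2, 46.3 and 59.0 CPM and then at 65.6, 47.7 and 41.9 CPM (-0.02 ± 0.27, adjusted p = 0.958). Psmb10 stood at 13.4, 11.2 and 17.5 CPM and then at 18.3, 15.6 and 14.0 CPM (0.18 ± 0.22, adjusted p = 0.580). The weeks overlapped for Psmb8 and Psmb10 and not for Psmb9. Nlrc5 stood at 10.6, 19.1 and 26.2 CPM and then at 19.4, 62.3 and 62.7 CPM, with replicate 1 low at both weeks. Its change of 1.38 ± 0.40 passed (adjusted p = 0.0193) and was lost without replicate 1 of week 1 (1.09), replicate 2 of week 4 (1.16) or replicate 3 of week 4 (1.15). It was also lost in a fit of the 6 wt/wt libraries alone (adjusted p = 0.0619), in which 4 members and 13.5% of all genes were higher.

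Whether the change over time differed between the genotypes was tested directly as an interaction, the log2 change in the Δ/Δ-labelled libraries minus that in wt/wt. H2-K1 passed, with a difference of 0.89 ± 0.22 (edgeR adjusted p = 0.0244), and it was the only member of 10 to do so, where 7.15% of all genes tested passed. The call was lost when any of replicates 1, 2 or 3 of week 1 Δ/Δ, 1 or 3 of week 1 wt/wt, 1 or 3 of week 4 Δ/Δ, or 3 of week 4 wt/wt was left out, 8 of the 12 libraries in turn. Its value then ran from 0.78 to 1.05 over all 12. Psmb9 (1.07 ± 0.30, adjusted p = 0.0515), Psmb8 (1.28 ± 0.38, adjusted p = 0.0654) and Tap2 (0.54 ± 0.18, adjusted p = 0.0976) followed. Nlrc5 had an estimate of -0.01 ± 0.57 (adjusted p = 0.998). Without replicate 2 of week 4 Δ/Δ, 8 of the 10 members and 6.42% of all genes passed.

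**Figure D2:**
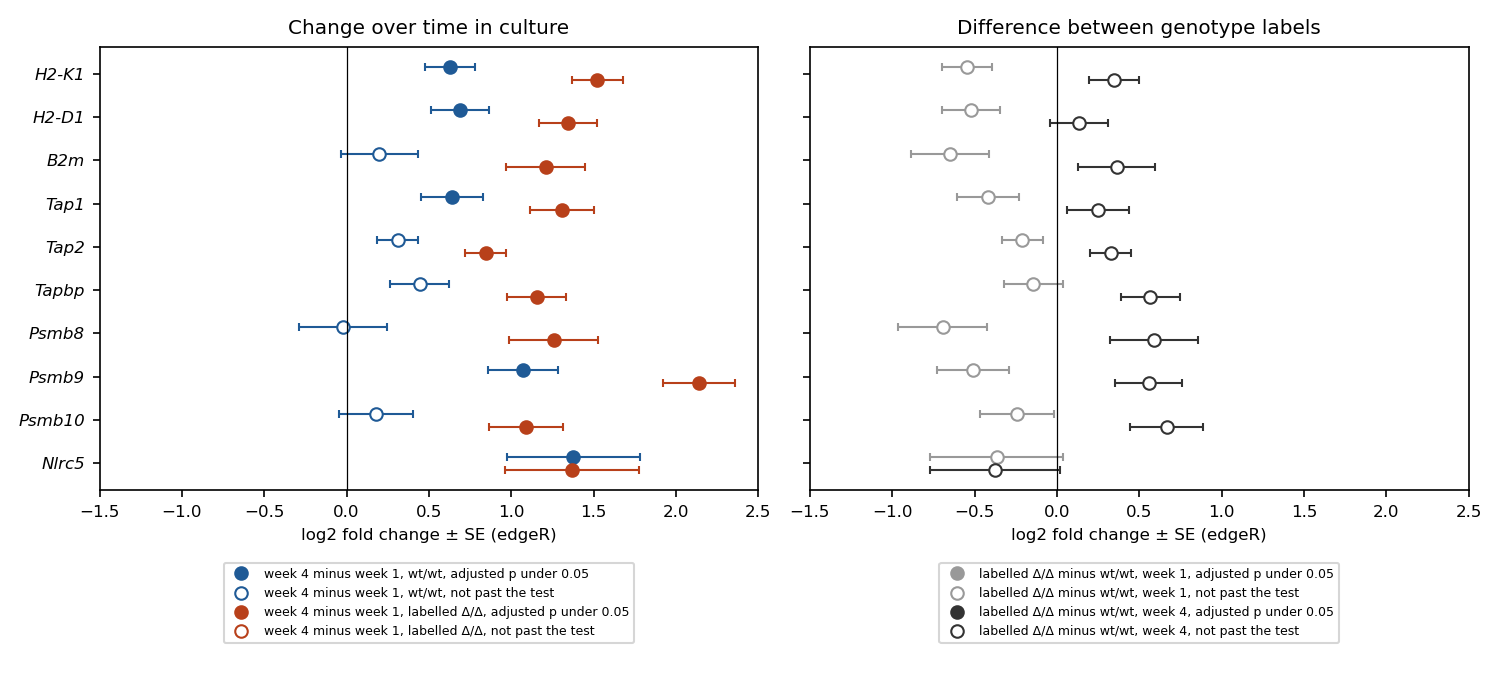
Log2 fold changes of the members with their SE (edgeR, 12 cultured libraries), over time on the left and between genotype labels on the right. Filled points passed the adjusted p of 0.05. All 10 points for time in the Δ/Δ-labelled libraries and 5 of those in wt/wt are filled, and no point of the genotype comparisons is.

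The genotypes were then compared at each week. At week 1 none of the 10 members passed the test (edgeR), while 1.02% of all genes did. All 10 estimates were below 0 in the Δ/Δ-labelled libraries, with a median of -0.46 on the log2 scale against -0.0036 over all genes, and 6 had an unadjusted p under 0.05, as did 11.9% of all genes. DESeq2 called 1 member, H2-K1, and 3.44% of all genes. H2-K1 (log2 difference -0.55 ± 0.15, edgeR adjusted p = 0.122), H2-D1, B2m, Tap1 and Psmb8 were lower in every library labelled Δ/Δ than in any wt/wt library, a pattern that 10.8% of all genes showed. For Psmb8 the Δ/Δ-labelled libraries were tight at week 1, from 32.0 to 32.7 CPM against 46.3 to 59.0 CPM in wt/wt. This did not hold for every member, as Tapbp had an SD of 14.5 CPM in the Δ/Δ-labelled libraries and 13.0 CPM in wt/wt. In a fit of these 6 libraries alone H2-K1, H2-D1 and Psmb8 passed, as did 1.88% of all genes.

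At week 4 again none of the 10 passed (edgeR), while 15.7% of all genes did, and 6 had an unadjusted p under 0.05 (27.0% of all genes). DESeq2 called 2 members, Tapbp and Psmb10, and 17.7% of all genes. The estimates were above 0 for all members but Nlrc5, with a median of 0.35. Nearest to the threshold were Tapbp (0.57 ± 0.18, edgeR adjusted p = 0.0509), Psmb10 (0.67 ± 0.22, adjusted p = 0.0632) and Psmb9 (0.56 ± 0.20, adjusted p = 0.0889). The groups overlapped for every member, and did not for 27.4% of all genes. Replicates 1 and 3 labelled Δ/Δ were above all wt/wt libraries for 8 and 7 members, and replicate 2 for none.

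Replicate 2 of this group was also the lowest of its 3 libraries for Ifit1 and Irf7, but not for every gene. Kitl stood at 237, 413 and 260 CPM in replicates 1, 2 and 3, and Cxcl12 at 12735, 16208 and 14514 CPM. Ifit1, an interferon-induced gene, stood at 170, 12.8 and 70.3 CPM in replicates 1, 2 and 3, and Irf7, an interferon-induced transcription factor, at 95.4, 11.4 and 51.2 CPM. In wt/wt at week 4 Ifit1 stood at 2.51 to 7.85 CPM and Irf7 at 8.97 to 11.7 CPM. The order of Ifit1 and Irf7 over the 3 Δ/Δ-labelled libraries was the same as that of H2-K1, H2-D1, Tap1, Tapbp, Psmb8 and Psmb10. It differed from that of the other members. Without replicate 2, 7 members and 12.3% of all genes passed at week 4, with 0.50 for H2-K1, 0.45 for Tap1, 0.43 for Tap2, 0.74 for Tapbp, 0.86 for Psmb8, 0.72 for Psmb9 and 0.87 for Psmb10. Without replicate 1 of wt/wt, Tapbp (0.72) and Psmb10 (0.77) passed, as did 17.5% of all genes. The part of the interferon-induced genes in these values was not tested. Replicate 1 of each genotype also stood apart at week 4 in Actb, at 4794 CPM against 10894 and 10358 CPM in wt/wt. In the Δ/Δ-labelled libraries Actb stood at 6260 CPM in replicate 1 against 9566 and 9628 CPM.

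Other cell types were measured by their markers. Macrophage markers summed to 4.88 to 6.19 CPM in wt/wt and 14.4 to 15.9 CPM in the Δ/Δ-labelled libraries at week 1, and to 14.3 to 20.3 and 20.4 to 23.4 CPM at week 4, with 6 to 8 of the 10 markers under 1 CPM. Osteoblast markers summed to 908 to 973 CPM in wt/wt and 1183 to 1419 CPM in the Δ/Δ-labelled libraries at week 1, and to 7487 to 9576 and 1964 to 2722 CPM at week 4. Over time 5 of the 6 rose in wt/wt and 3 of the 6 in the Δ/Δ-labelled libraries, beside the rise of the members. Of all genes, 17.9% and 18.8% rose. The part of the macrophage and osteoblast markers in the members' values was not tested.

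The immunoproteasome was also measured within each library, as the log2 ratio of each immunosubunit to the standard subunit that it replaces, which does not depend on scaling between libraries. The ratio of Psmb8 to Psmb5 stood at -0.85, -0.69 and -0.96 at week 1 and at 1.07, 0.17 and 0.56 at week 4 in the Δ/Δ-labelled libraries, a mean difference of 1.43. In wt/wt it stood at -0.24, -0.20 and 0.35 and then at 0.11, -0.37 and -0.39, a difference of -0.19. The former groups were apart and the latter overlapped. Psmb9 to Psmb6 differed by 2.32 over time in the Δ/Δ-labelled libraries and by 1.00 in wt/wt, apart in both, and Psmb10 to Psmb7 by 1.42 and 0.54, apart in the Δ/Δ-labelled libraries. Between genotypes, the ratio of Psmb8 to Psmb5 stood lower in the Δ/Δ-labelled libraries at week 1 (-0.80) and higher at week 4 (0.82), and the groups were apart at both weeks. That of Psmb9 to Psmb6 differed by -0.48 at week 1, with overlap, and by 0.84 at week 4, apart. That of Psmb10 to Psmb7 differed by -0.08 and 0.80, with overlap at both weeks.

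Each ratio with separate groups had p = 0.1 in a two-sided exact permutation test, which is the smallest that 3 against 3 libraries allow, and p = 0.214 after adjustment over 15 such tests. Other two-sided exact p-values ran from 0.2 to 0.8. The standard subunits were measured on their own as well. Psmb5 stood at 53.7 ± 7.53 (SD, n = 3), 57.9 ± 6.04, 59.2 ± 3.60 and 48.3 ± 9.78 CPM in wt/wt week 1, Δ/Δ week 1, wt/wt week 4 and Δ/Δ week 4. Psmb6 had means of 153, 152, 168 and 133 CPM in the same order, and Psmb7 of 65.1, 59.3, 51.9 and 45.4 CPM. Psmb7 was lower at week 4 in both genotypes. In the Δ/Δ-labelled libraries the change of -0.39 ± 0.11 (edgeR adjusted p = 0.0159) was lost without replicate 1 of week 1 (-0.34) or of week 4 (-0.35). In wt/wt its change of -0.33 ± 0.11 (adjusted p = 0.0363) was lost without any library but replicate 2 of week 4, with values from -0.40 to -0.22.

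**Figure D3:**
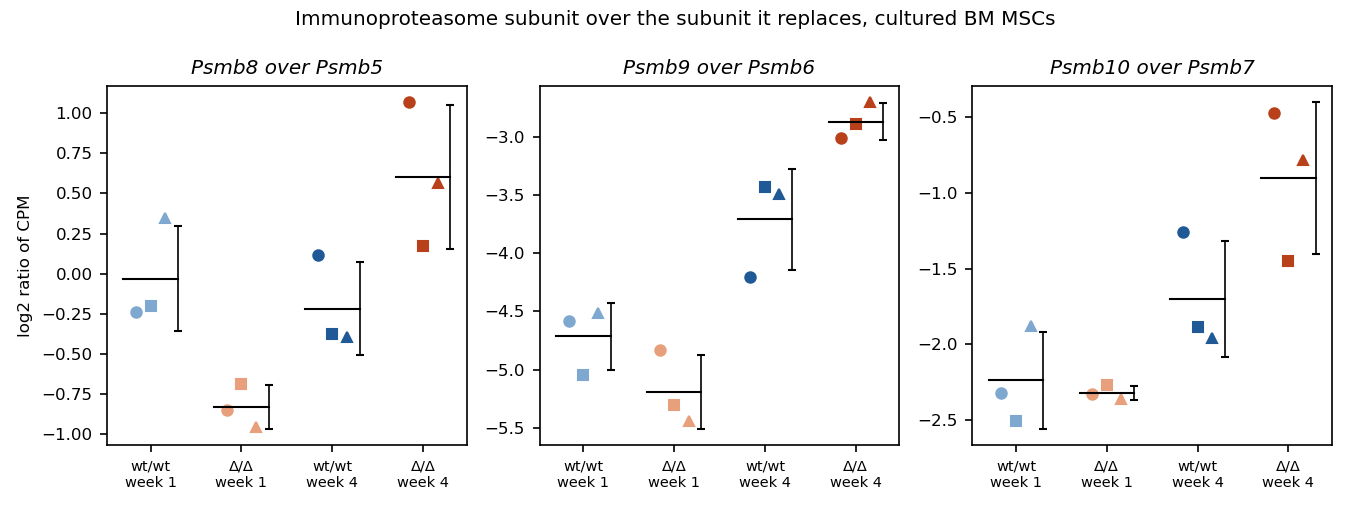
Log2 ratio of each immunosubunit's CPM to that of the standard subunit it replaces, by library, in the 4 cultured groups. Symbols mark replicates as in the plot of member levels, lines are means and bars the SD (n = 3). For Psmb8 over Psmb5 the Δ/Δ-labelled libraries lie between -0.96 and -0.69 at week 1 and between 0.17 and 1.07 at week 4.

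The rest of the pathway was followed in gene lists. Over time, 4483 of all 13169 genes tested were called in wt/wt, 2357 of them higher (edgeR). In the Δ/Δ-labelled libraries 4623 were called, 2482 of them higher. Between genotypes 134 were called at week 1 and 2062 at week 4, 99 and 1211 of them higher. The counts of each list below are to be read beside these. Of 24 further class I heavy chains, which include non-classical ones that present lipids, metabolites or few peptides, 12 could be tested in culture. Over time 9 of these rose in wt/wt and 10 in the Δ/Δ-labelled libraries, with medians of 0.91 and 1.65 on the log2 scale, and none fell. H2-T24, a low gene with no group mean above 2.05 CPM, was the only one whose interaction passed, with a negative sign (-1.34 ± 0.37, edgeR adjusted p = 0.0451). That call held only without replicate 1 of week 1 Δ/Δ, replicate 2 of week 4 Δ/Δ or replicate 1 of week 4 wt/wt, and was lost without any of the other 9 libraries (values from -1.52 to -1.12 over all 12). Cd1d1, which presents lipids to NKT cells, rose from 12.7 ± 1.52 (SD, n = 3) to 28.5 ± 4.67 CPM in wt/wt and from 14.2 ± 0.81 to 49.2 ± 4.48 CPM in the Δ/Δ-labelled libraries. Fcgrt, the neonatal Fc receptor heavy chain, rose from 181 ± 9.06 to 342 ± 83.2 CPM and from 201 ± 9.21 to 496 ± 80.1 CPM. At week 4 between genotypes 3 were higher and none lower in the Δ/Δ-labelled libraries, among them Cd1d1 (log2 difference 0.79 ± 0.14, edgeR adjusted p = 0.00175) and H2-Q10 (1.73 ± 0.26, adjusted p = 5.00e-04). H2-Q10 was low, at 2.70 to 2.89 CPM against 0.67 to 1.05 CPM. H2-Q6 and H2-Q7, which are nearly identical to each other, were at 0 in all 18 libraries and are named after their values were seen, since reads of such copies are uncertain.

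Of 10 other genes of peptide loading, 1 rose over time in each genotype (17.9% and 18.8% of all genes). In wt/wt 2 fell, and 3 fell in the Δ/Δ-labelled libraries. The gene that rose was Tapbpl, a relative of tapasin that edits peptides, with a log2 change of 0.60 ± 0.15 in wt/wt (edgeR adjusted p = 0.00850) and 0.89 ± 0.15 in the Δ/Δ-labelled libraries (adjusted p = 6.09e-04). Of 11 other subunits of the proteasome core, none rose over time, and 2 fell in wt/wt and 1 in the Δ/Δ-labelled libraries. Psme1 and Psme2, which form the interferon-induced PA28 activator, rose in the Δ/Δ-labelled libraries, by 0.44 ± 0.13 (adjusted p = 0.0192) and 0.52 ± 0.17 (adjusted p = 0.0292). The Psme1 call was lost without replicate 2 or 3 of week 1 (0.43 and 0.41) or 1 or 3 of week 4 (0.39 and 0.41), and that of Psme2 without replicate 1 or 3 of either week (0.51, 0.49, 0.41 and 0.51). In wt/wt Psme1 stood at 50.1 ± 6.43 and then at 45.1 ± 4.44 CPM, and Psme2 at 69.0 ± 5.74 and then at 70.5 ± 16.7 CPM.

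NLRC5 acts on class I promoters together with DNA-bound factors and the acetyltransferases they recruit. Of 11 such partners, 1 rose over time in each genotype (17.9% and 18.8% of all genes). In wt/wt 3 fell, and 2 fell in the Δ/Δ-labelled libraries. Kat2b, a histone acetyltransferase, rose by 0.78 ± 0.17 in wt/wt (edgeR adjusted p = 0.00383) and 1.47 ± 0.17 in the Δ/Δ-labelled libraries (adjusted p = 4.33e-05). Nfyc, a subunit of the factor that binds CCAAT, fell by 0.47 ± 0.12 on the log2 scale (adjusted p = 0.00763) and by 0.55 ± 0.12 (adjusted p = 0.00294). Rfx5, which binds the X box, had means of 28.9, 29.8, 32.3 and 30.9 CPM in wt/wt week 1, Δ/Δ week 1, wt/wt week 4 and Δ/Δ week 4.

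Of 7 interferon receptor chains and their kinases, 4 rose in wt/wt over time, and 3 rose and 1 fell in the Δ/Δ-labelled libraries. Ifngr1, the ligand-binding chain of the interferon-γ receptor, stood at 382, 274 and 285 CPM in wt/wt at week 4 and at 638, 481 and 543 CPM in the Δ/Δ-labelled libraries (log2 difference 0.82 ± 0.14, edgeR adjusted p = 0.00159). Jak2, a kinase of that receptor, went the other way, at 338, 330 and 400 CPM against 190, 201 and 162 CPM (-0.95 ± 0.12, adjusted p = 2.00e-04). Neither gene overlapped between the groups. None of 9 interferon ligand genes had enough reads to be tested. In culture 8 of the 9 were at 0 in every library and Ifnb1 had a highest count of 1, so ligand expression was not detectable at this depth.

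Among 12 tested interferon and NF-κB transcription factors, 6 were higher and none lower in the Δ/Δ-labelled libraries at week 4. Irf1, which acts downstream of interferon-γ, stood at 33.4, 37.3 and 34.9 CPM in wt/wt and at 59.2, 53.9 and 68.5 CPM in the Δ/Δ-labelled libraries at week 4 (0.78 ± 0.16, edgeR adjusted p = 0.00466), with no overlap. Over time Irf1 rose by 0.89 ± 0.16 in the Δ/Δ-labelled libraries (edgeR adjusted p = 9.60e-04). In wt/wt Irf1 had an estimate of 0.27 (adjusted p = 0.227).

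Interferon-induced genes outside the class I pathway differed between the genotypes at week 4. Of 11 tested interferon-induced GTPases 8 were higher, and of 13 tested type I interferon response genes 12 were higher, with none lower in either list. Over time, 9 of the 11 GTPases and 12 of the 13 response genes rose in the Δ/Δ-labelled libraries. In wt/wt none rose, and 1 GTPase and 9 response genes fell, whereas none of the class I members fell. Usp18, which limits interferon signalling, stood at 20.0, 8.46 and 71.8 CPM in wt/wt at week 1 and at 2.32, 0.63 and 1.28 CPM at week 4 (-4.66 ± 1.09, edgeR adjusted p = 0.00563). In the Δ/Δ-labelled libraries it stood at 0.73, 1.66 and 1.61 CPM and then at 103, 4.54 and 34.9 CPM. The interaction passed for 9 of the 11 GTPases and all 13 response genes, where 7.15% of all genes passed. For Iigp1, a GTPase that acts on vacuoles of intracellular parasites, it was 4.99 ± 0.81 (adjusted p = 0.00221), and for Gbp2, a guanylate-binding protein, 1.58 ± 0.29 (adjusted p = 0.00498). At week 1, 2 response genes were called lower in the Δ/Δ-labelled libraries and no GTPase was called, where 1.02% of all genes were called in either direction. Yet 10 of the 13 response genes and 6 of the 11 GTPases were lower with no overlap, as were 10.8% of all genes. Median log2 differences at week 1 were -3.15 for the response genes and -1.45 for the GTPases, and no estimate in either list was above 0.

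The class II pathway, which presents peptides from outside the cell, was also measured. Of its 12 genes 5 could be tested in culture, and Ciita, the class II counterpart of Nlrc5, was not among them, with 0 to 0.22 CPM. Over time 4 of the 5 rose in wt/wt and 2 in the Δ/Δ-labelled libraries. H2-DMb1, a chaperone of class II loading, rose from 11.5 ± 0.67 (SD, n = 3) to 29.5 ± 3.94 CPM in wt/wt and from 11.4 ± 0.85 to 25.4 ± 2.38 CPM in the Δ/Δ-labelled libraries. At week 4, 2 of the 5 were lower in the Δ/Δ-labelled libraries than in wt/wt and none was higher.

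**Figure D4:**
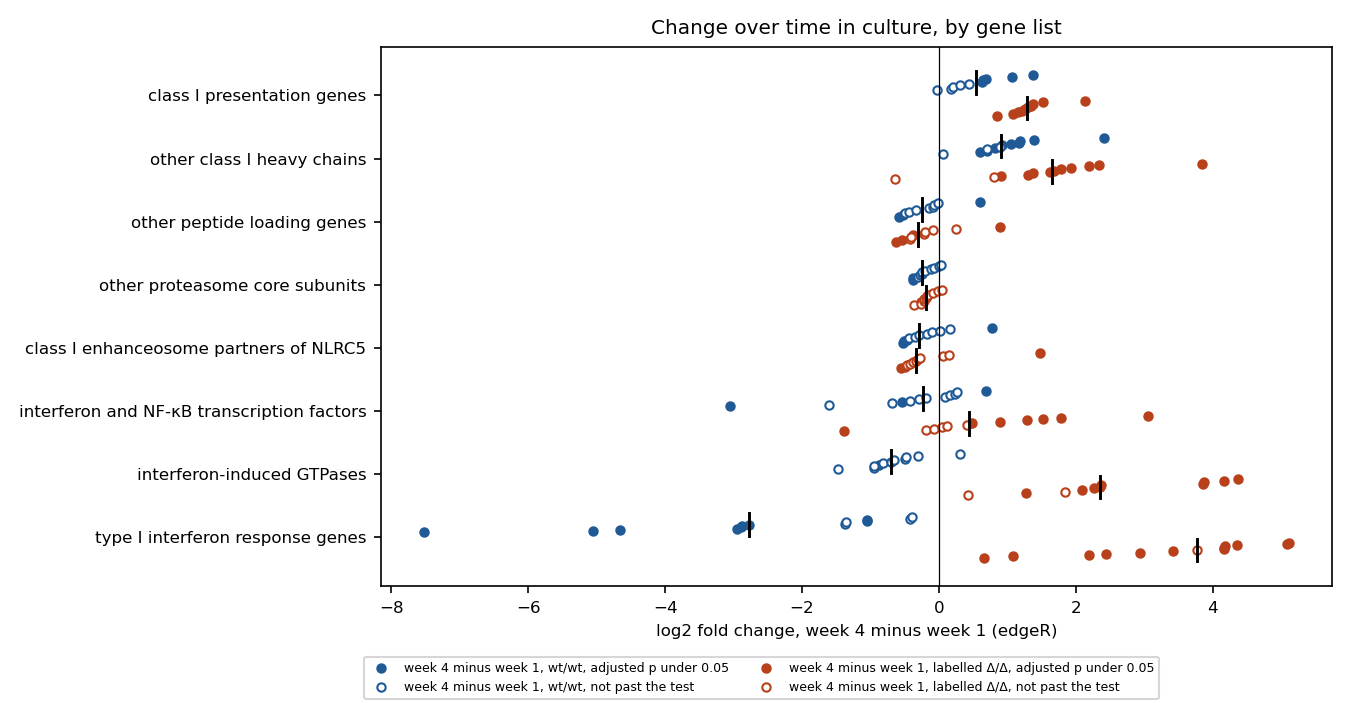
Log2 change from week 1 to week 4 of each tested gene, by list, in wt/wt (blue) and in the Δ/Δ-labelled libraries (red). Filled points passed the adjusted p of 0.05 and black bars are list medians. The class I genes have medians of 0.54 and 1.28, and the type I interferon response genes of -2.78 and 3.77.

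Genes with a pattern like that of the members were looked for among all genes tested in the 12 cultured libraries. The measure was Pearson's r with the mean of the members' standardised log2 CPM, as a description, since the points share groups and weeks. The 5 highest were H2-M3 (r = 0.98), BC028528 (0.96), Cst3 (0.95), H2-K2 (0.95) and H2-T23 (0.95). H2-M3 and H2-T23 are non-classical class I genes, and H2-K2 is a close relative of H2-K1 whose reads may be shared with it. Cst3 encodes cystatin C, an inhibitor of cysteine proteases, and stood at 243, 210 and 224 CPM in wt/wt and 204, 188 and 208 CPM in the Δ/Δ-labelled libraries at week 1. At week 4 it stood at 327, 297 and 250 CPM and at 419, 326 and 440 CPM. Among the members, r with the mean of the other 9 ran from 0.59 (Nlrc5) and 0.77 (B2m) to 0.99 (H2-K1). Over the 6 libraries of sorted cells the 5 highest were Slc25a53 (0.99), Paqr5 (0.99), Dnd1 (0.99), Tmem231 (0.98) and Vit (0.98), with an r of -0.02 for Nlrc5. With 6 points and 14605 genes tested, values this high can arise by chance, so no link of these 5 genes to the members is drawn.

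The last comparison was of the sorted tdTomato+ cells, in which several libraries stood apart in ways that the titles do not give. Megakaryocyte markers summed to 1630 CPM in replicate 2 of wt/Δ and 859 CPM in replicate 3 of Δ/Δ, against 35.4 to 90.7 CPM in the other 4. Ddx3y, which lies on the Y chromosome, stood at 89.0 and 121 CPM in replicates 1 and 3 of wt/Δ and at 0 in the other 4, which held Xist at 24.4 to 46.7 CPM. Haematopoietic markers were present in all 6 libraries. Endothelial markers summed to 1142 to 1668 CPM in wt/Δ and to 1720 to 1822 CPM in Δ/Δ, with no overlap. Of these 6 markers 3 were higher in Δ/Δ with no overlap and none was called (edgeR), where 20.5% of all genes did not overlap. Pecam1, which encodes CD31, stood at 125 to 137 CPM in wt/Δ and at 198 to 208 CPM in Δ/Δ. MSCs were defined in the study as negative for CD45, TER119 and CD31, but for these libraries the sources name only a sort on tdTomato. By flow cytometry the study found tdTomato in marrow only among cells negative for those markers and positive for PDGFRα and CD51. The endothelial and haematopoietic marker reads in these libraries stand beside that report, and their source was not tested. With sex as a covariate 0 genes in all passed (edgeR), and without the libraries rich in megakaryocyte markers 2 genes passed, no member among them. With so few calls these fits cannot show whether the members differ. The only wt/Δ library without Ddx3y was replicate 2, which was also rich in megakaryocyte markers. The part of these differences in the members' values was not tested.

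Sorted cells of Pot1aΔ/Δ mice were set against those of Pot1awt/Δ mice. None of the 10 members passed the test, nor did any other of the 14605 genes (0.00% called by edgeR). Of all genes 1792 had an unadjusted p under 0.05 and DESeq2 called 417 (2.86%), with no member among these. Among the members 1, Psmb10, had an unadjusted p under 0.05, against 12.3% of all genes. The estimates were above 0 for Tap1 and Tap2 and below 0 for the other 8, with a median of -0.39.

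H2-K1 stood at 1375, 728 and 405 CPM in the libraries labelled wt/Δ and at 886, 672 and 484 CPM in those labelled Δ/Δ (log2 difference -0.30 ± 0.43, edgeR adjusted p = 0.838). H2-D1 stood at 1775, 836 and 619 CPM and at 1023, 781 and 619 CPM (-0.42 ± 0.40, adjusted p = 0.736). B2m stood at 2355, 1735 and 692 CPM and at 1287, 1381 and 988 CPM (-0.39 ± 0.41, adjusted p = 0.768). Replicate 1 of wt/Δ was the highest and replicate 3 the lowest of all 6 libraries for H2-K1 and B2m, so that the Δ/Δ values lay within the wt/Δ range. Without replicate 1 of wt/Δ the estimates were 0.26, 0.14 and 0.00020.

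Tap1 stood at 75.1, 45.8 and 51.3 CPM in wt/Δ and at 98.3, 80.6 and 52.7 CPM in Δ/Δ (0.43 ± 0.28, edgeR adjusted p = 0.585), and Tap2 at 139, 97.7 and 102 CPM and at 141, 128 and 112 CPM. Tapbp stood at 659, 411 and 458 CPM and at 604, 459 and 438 CPM. The groups overlapped for all of these. Psmb8 stood at 206, 156 and 149 CPM and at 148, 124 and 102 CPM (-0.45 ± 0.20, adjusted p = 0.429), the only member whose groups did not overlap, as for 20.5% of all genes. Psmb9 stood at 46.0, 35.9 and 20.6 CPM and at 31.0, 28.3 and 19.0 CPM, and Psmb10 at 120, 98.1 and 70.0 CPM and at 72.2, 66.2 and 57.7 CPM (-0.55 ± 0.22, adjusted p = 0.371). Nlrc5 was low, at 1.91, 0.80 and 5.08 CPM and at 1.22, 2.63 and 0.71 CPM. Replicate 3 labelled Δ/Δ was the lowest of its group for all 10 members.

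The ratio of Psmb8 to Psmb5 had means of 0.95 ± 0.27 (SD, n = 3) in wt/Δ and 0.98 ± 0.30 in Δ/Δ, a difference of 0.03 (two-sided exact permutation p = 0.8). Differences for Psmb9 to Psmb6 (0.50) and Psmb10 to Psmb7 (-0.29) had exact p = 0.4 and 0.3. Of the 11 other proteasome core subunits, 10 were lower in Δ/Δ with no overlap and 8 had an unadjusted p under 0.05, where 20.5% of all genes did not overlap in either direction and 12.3% had such a p, with a median log2 difference of -0.51. None of the genes in the other lists passed, among them Irf1, with 163 to 714 CPM in wt/Δ and 325 to 524 CPM in Δ/Δ.

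**Figure D5:**
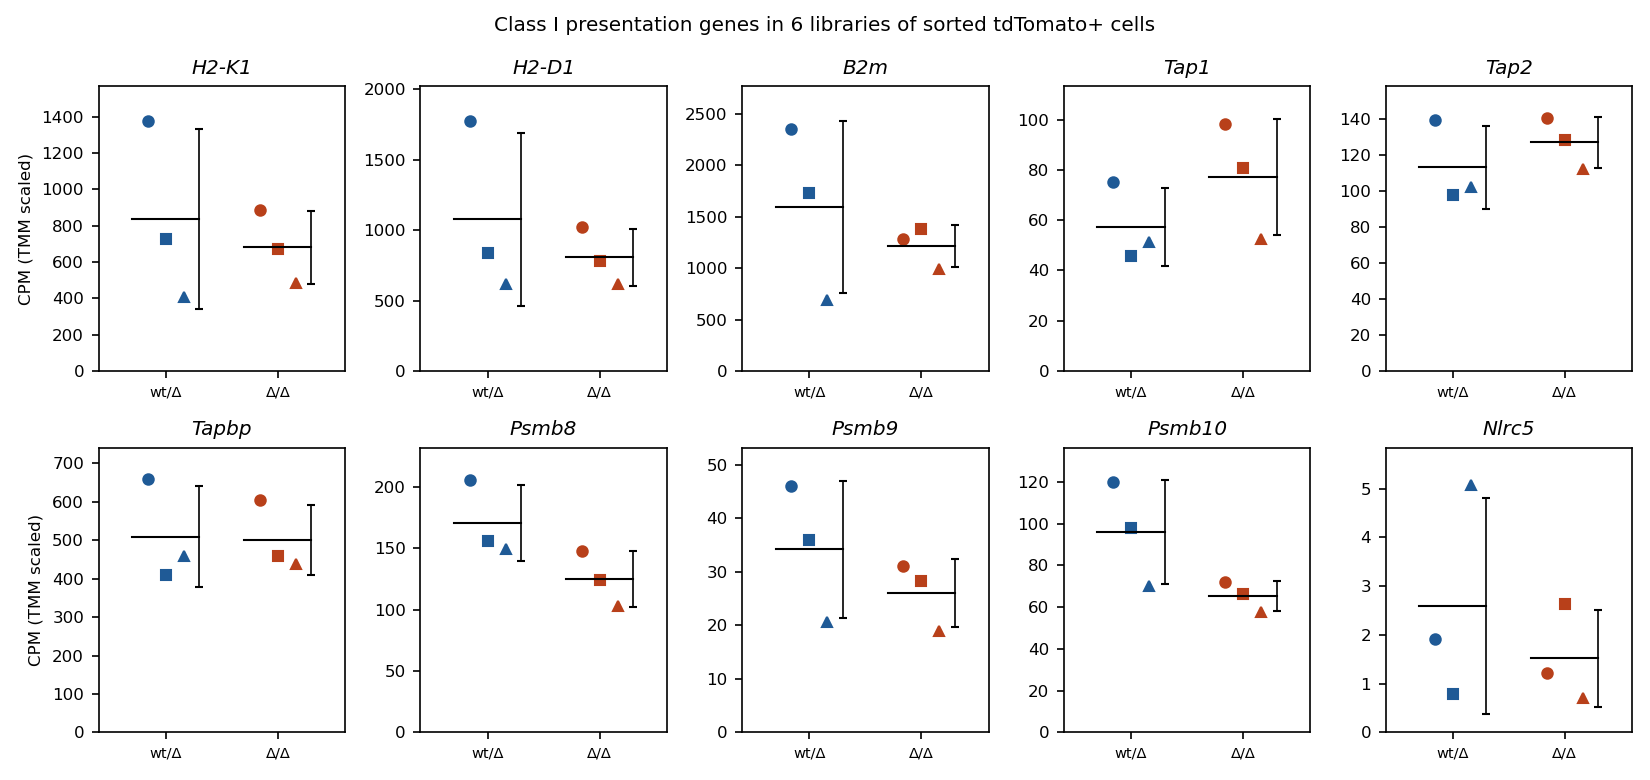
CPM (TMM scaled, linear axes from 0) of each member in the 6 libraries of sorted tdTomato+ cells. Circles, squares and triangles are replicates 1, 2 and 3, lines are means and error bars the SD (n = 3). The wt/Δ libraries spread from 405 to 1375 CPM for H2-K1 and enclose the Δ/Δ libraries, and Psmb8 is the only gene whose groups do not overlap.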

How the data were processed

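The authors aligned the reads with HISAT2 2.0.4 to the mouse genome (mm10) and counted them per gene symbol with featureCounts 1.6.3. The annotation, and how reads with several matches were treated, are not given in the sources used here. The values deposited are raw counts, whole numbers with no normalization, from an unstranded full-length cDNA kit. Counts were tested with edgeR 4.0.16 in R 4.3.3 (filterByExpr with a minimum count of 10, TMM scaling, quasi-likelihood test). P-values were adjusted by Benjamini-Hochberg over all genes tested, 13169 in culture and 14605 in sorted cells, with a threshold of 0.05. All cultured groups shared 1 fit with a coefficient each, and the sorted cells had a fit of their own. SE were derived from the F statistic. Replicates differed by more than counting error (chi-squared per degree of freedom 11.0 to 398 over 18 pairs). The figure legends of the study give mice as replicates, but no label ties a library to a mouse, so p-values measure the spread between these libraries, which may be technical.

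The members, gene lists and tests were chosen with earlier results of these data known. All members are named. From each other list up to 4 genes past the test, by smallest p, or up to 2 by level where none passed, could be named, with a fixed set besides (Pot1a, Ciita, Irf1, Psme1, Psme2 and Psmb5, Psmb6, Psmb7). The text uses part of these, and 1 gene of the fixed set is not reported here.

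Same-numbered wt/wt libraries deviated together to a small degree between the weeks (r = 0.152, 0.220 and 0.209), which met a rule of r over 0.1 in every pair. The labels state no pairing, and the p-values given for time in wt/wt are from the unpaired fit. A replicate block within wt/wt, added after the data were seen, changed no member's call. No other groups met that rule by number. On simulated counts, the fit recovered 76 of 100 genes changed 2-fold and 97 of 100 changed 4-fold at week 4, and 5 and 69 of 100 in sorted cells. Promoter sequences are from RefSeq (GRCm38.p6), and exon lengths from GENCODE vM21. Alternatives were DESeq2 1.42.0, other scaling and filters, a replicate block, other thresholds, the 6 libraries compared alone and leaving out each library.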

Additional observations from a re-analysis of the deposited data

Results flagged for a closer look

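The genotype difference of H2-K1 was -0.55 at week 1 and 0.35 at week 4 on the log2 scale, neither of which passed (edgeR adjusted p = 0.122 and 0.164). The test of the difference between them gave 0.89 (edgeR adjusted p = 0.0244). That call was lost when any of 8 of the 12 libraries was left out (all 3 of week 1 Δ/Δ, replicates 1 and 3 of week 1 wt/wt, 1 and 3 of week 4 Δ/Δ, and 3 of week 4 wt/wt). It was also lost at an adjusted p under 0.01 and without both week 4 libraries numbered 1 (0.78, adjusted p = 0.0527). Levels in the Δ/Δ-labelled libraries were below all wt/wt libraries at week 1, and at week 4 the groups overlapped.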

How the results depend on the processing

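Over time, 9 to 10 members passed in the Δ/Δ-labelled libraries and 4 to 5 in wt/wt when each library was left out, and 3 in wt/wt at an adjusted p under 0.01. Leaving each out, 3353 to 4294 genes in all were called in the Δ/Δ-labelled libraries and 3614 to 4428 in wt/wt. Genes in all were not counted at other thresholds, and a looser threshold calls more of them too. The replicate block left the counts at 0, 0, 5, 10, 1 and 0 for the genotypes at weeks 1 and 4, time in wt/wt and in Δ/Δ, the interaction and the sorted cells. Same-numbered libraries other than wt/wt over time share only a number, with correlations of 0.636, 0.226 and -0.0835 between genotypes at week 4. At week 4 the count of 0 became 3 at an adjusted p under 0.1, 1 with no filter, 1 with at least 10 counts in every library, 2 with DESeq2 and 1 without both week 4 libraries numbered 1, an alternative added after the data were seen, and 0 to 7 when each library was left out. For the interaction the count of 1 became 0 and 4 at an adjusted p under 0.01 and 0.1, 3 with no filter and 4 with DESeq2, and 0 to 8 when each library was left out. At week 1 it became 1 with DESeq2 and 3 in the 6 libraries alone. Genes called at week 1 were 134 in all, against 85 with at least 10 counts in every library, 453 with DESeq2, 237 in the 6 libraries alone and 49 to 181 leaving each out. At week 4 they were 2062 against 1267 in the 6 libraries alone, and in sorted cells 0 against 417 with DESeq2, 2 without the megakaryocyte-rich libraries and 0 to 4 leaving each out. The other week 4 totals were 1941 with no filter, 1634 with at least 10 counts in every library and 2336 with DESeq2. Without both week 4 libraries numbered 1 the total was 2005, and leaving each out it was 1551 to 2339. For the interaction 942 genes were called, against 909 with no filter, 1276 with DESeq2 and 647 to 1248 leaving each out.

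Directions turned only in estimates that had not passed. With library size only, Psmb8 over time in wt/wt was 0.0026 and Tapbp in sorted cells 0.062, and a sex covariate, added after the data were seen, gave 0.28 for Tapbp and 0.93 for Nlrc5 there. Leaving out each library moved Psmb8 over time in wt/wt from -0.23 to 0.12 and B2m from -0.098 to 0.42, H2-D1 at week 4 from -0.077 to 0.30 and the Nlrc5 interaction from -0.38 to 0.27. In sorted cells it moved H2-K1 from -0.63 to 0.26, H2-D1 from -0.69 to 0.14, B2m from -0.75 to 0.00020, Tapbp from -0.18 to 0.20, Nlrc5 from -1.42 to 0.17 and Irf1 from -0.22 to 0.88. The log2 ratio of Psmb8 to Psmb5 moved from -0.35 to 0.0024 over time in wt/wt and from -0.14 to 0.18 in sorted cells, and that of Psmb10 to Psmb7 at week 1 from -0.22 to 0.095. The causes were not tested. In sorted cells the fit recovered few 2-fold changes in simulated counts, so a difference of that size may often not have been detectable. The simulated libraries were given no differences of sex or cell types, so the rates of recovery need not hold for the real ones. Genes that overlap B2m, Tapbp, Tap2, Psmb8 and Psmb10 may add to their counts to an unknown extent.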
